A study of Mus musculus with 6 samples.

Results

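The genes described here encode the contractile apparatus of smooth muscle and its closest associates: Tagln, Acta2, Myh11, Cnn1, Cald1, Myl9, Lmod1, Des, Tpm2 and Smtn. They were chosen by gene name, with earlier results of these data known. Every probe set that the array annotation assigned to exactly 1 of them was used, which gave 21 of 45101 probe sets, for 10 of 18194 genes. The samples were kidney glomeruli of 3 dendrin knockout mice (genotype Dendrin KO) and 3 wild type littermate control mice, all 13 months old and of the 129S6SvEv/C57BL6 background. In the knockout mice a cassette encoding eGFP and neomycin resistance stood in place of the coding sequence of dendrin in every cell of the animal, not in podocytes alone, and neither group received a treatment. According to the methods, the line had been crossed back to C57BL/6 for several generations. RNA of each mouse was hybridised to its own Affymetrix Mouse Genome 430 2.0 array, and values are GCRMA values, background-corrected log2 signals. The question put to the arrays was which glomerular transcripts differ between mice without and with dendrin, and each difference given is knockout minus control in log2 units, with the standard error (SE) of limma.

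Smooth muscle shortens when myosin II filaments pull on actin filaments, a step switched on by phosphorylation of the regulatory light chain of myosin. Tropomyosin, caldesmon and calponin lie along the actin filament and modulate it, while desmin filaments and dense bodies carry the force through the cell. In the glomerulus these genes are best known from mesangial cells, pericyte-like cells that hold the capillary loops together, and from the smooth muscle of the afferent and efferent arterioles at the vascular pole. Several of them are controlled by serum response factor, which binds the CArG box, a short motif of A and T bases between a CC and a GG, together with myocardin or a myocardin-related factor.

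The dendrin gene Ddn checked the labels: its values were 3.80, 3.81 and 3.80 on the knockout arrays and 12.22, 12.81 and 12.31 on the control arrays. Of the 45101 probe sets, 25482 had a mean under log2 4 and are called dim here. Over the 19619 that were not dim the arrays correlated at r = 0.973 to 0.995, and control 2 held the lowest of these. Control 2 also stood apart in the markers of other cell types. The summed unlogged signal of 10 tubule markers was 2979 to 4078 on the knockout arrays, against 13413 on control 2 and 2974 and 3024 on the other 2 control arrays. The corresponding sum of 10 leukocyte markers was 20758 to 36354 on the knockout arrays, against 6827 on control 2 and 26745 and 34903 on the other controls. In whole glomeruli a lower signal from fewer cells of a type and one from less RNA per cell cannot be told apart.

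The promoters of Acta2 and Myl9 are shown because they alone, among those available, held sequences of the CArG type. The RefSeq promoter table for GRCm38.p6, which runs from 250 bases before to 50 bases after the start site, held 9 windows for 8 of the 10 genes. Tagln and Myh11 are named only. The search was for 10 bases that open with CC and close with GG and hold only A and T between them (the CArG box), or hold 1 inner G or C (CArG-like), a pattern that reads alike on both strands. Printed here are the 250 bases before the start site, 5′ to 3′ on the strand of the gene, with the matches in capitals.
Acta2, chr19:34255374-34255623, minus strand: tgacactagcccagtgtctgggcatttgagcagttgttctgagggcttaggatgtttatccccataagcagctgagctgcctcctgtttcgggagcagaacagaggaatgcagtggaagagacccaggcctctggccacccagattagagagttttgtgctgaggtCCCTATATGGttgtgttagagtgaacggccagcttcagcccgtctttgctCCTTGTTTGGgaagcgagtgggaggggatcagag
Myl9, chr2:156775214-156775463, plus strand: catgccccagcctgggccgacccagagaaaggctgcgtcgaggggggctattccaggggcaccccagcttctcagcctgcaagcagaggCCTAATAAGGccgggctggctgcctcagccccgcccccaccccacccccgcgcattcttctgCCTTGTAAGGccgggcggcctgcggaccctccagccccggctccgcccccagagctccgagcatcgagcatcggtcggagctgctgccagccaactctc
Acta2 had 2 CArG-like matches, which began 84 and 34 bases before the start site. Myl9 had 1 CArG box at 161 bases and 1 CArG-like match at 99 bases before its start site. No match lay in the windows of Cnn1, Cald1, Lmod1, Des, Tpm2 and Smtn. Of all 32851 promoters in the table, 1.63% held a CArG box and 9.98% a box or a CArG-like match. The matches describe these letters, and binding to them was not measured here.

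Among the genes of the contractile apparatus, Tagln was higher in dendrin-deficient glomeruli by 1.60-fold, and no other member passed the same criterion. Acta2 and Myh11 were next in size, but their groups overlapped. Smtn and Tpm2 differed by smaller amounts with no overlap between the groups, Cald1, Myl9 and Des lay close between genotypes, and Cnn1 and Lmod1 had no signal above the floor of the array. The criterion was that of the study, a fold over 1.5 with an unadjusted p under 0.05, here with the p of limma. It was met by 1 of the 21 member probe sets, which was higher, in a table in which 0.18% of all probe sets met it and 0.0843% met it with knockout higher, and by 1 of the 12 that were not dim, where 0.382% of all such probe sets did. None of the 21 passed with p adjusted over all probe sets (limma, Benjamini-Hochberg), which 0.00222% of all probe sets did, and 3 of the 12 not dim had an unadjusted p under 0.05, against 8.12% of all probe sets not dim. SAM, the test of the study, called 1 member probe set as well, with 0.235% of all probe sets called.

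**Figure D1:**
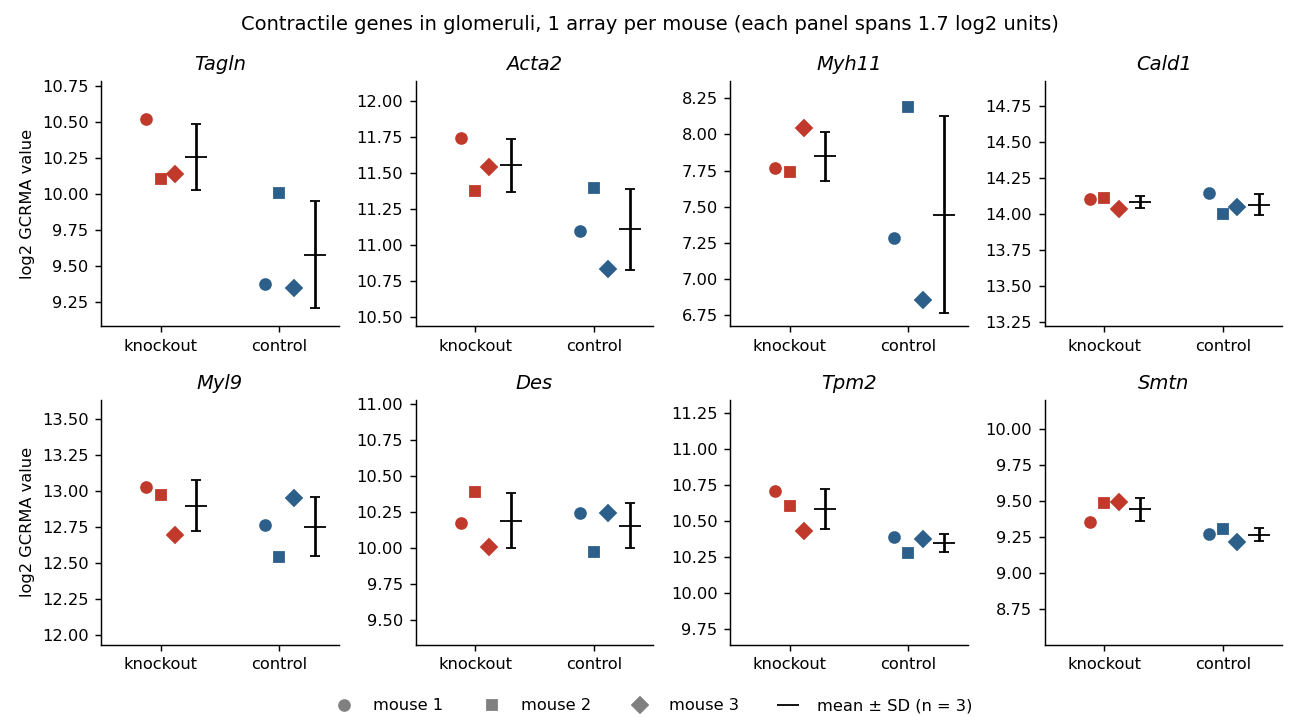
GCRMA value (log2) of each array for the brightest probe set of the 8 genes with signal, knockout left and control right, with 1 point per mouse, shapes that number the mice within a group and bars for the mean ± SD (n = 3). The groups of Tagln, Tpm2 and Smtn do not overlap, and for Tagln, Acta2 and Myh11 control 2 stands above the other controls. Each panel has its own range of values but the same span.

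Tagln encodes transgelin (SM22), an actin-binding protein of the smooth muscle cytoskeleton and an early marker of that lineage. Its gene lies on chr9:45929628-45936058 (GRCm38.p6). The 1 probe set of Tagln read 10.52, 10.11 and 10.14 in knockout glomeruli and 9.38, 10.01 and 9.35 in those of littermates. Every knockout value stood above every control value, but control 2 came within 0.25 of the knockout mean, whereas the other 2 controls lay well below. The means were 10.25 ± 0.23 in knockout and 9.58 ± 0.37 in control glomeruli (SD, n = 3 each). The difference was 0.68 (SE 0.24, 95% confidence interval 0.02 to 1.33), with an adjusted p of 1 from limma. The unadjusted limma p was 0.0458, and an exact two-sided permutation test gave p = 0.1, and no smaller value can be reached with groups of 3. With control 2 left out the difference was 0.89 and the criterion was met. With any other array left out the unadjusted p of limma was above 0.05, in a fit with 1 array fewer. The difference was then 0.54 without knockout 1, 0.75 without knockout 2, 0.73 without knockout 3, 0.57 without control 1 and 0.56 without control 3. It was larger without knockout 2 or knockout 3 than with all arrays. The p above 0.05 there does not show that the call rested on those arrays.

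Acta2, on chr19:34240336-34255585, encodes smooth muscle alpha-actin, the thin filament protein of vascular smooth muscle and of activated mesangial cells. Its values were 11.74, 11.37 and 11.54 in knockout and 11.10, 11.39 and 10.83 in control glomeruli. Knockout 2 lay just below control 2, so that the groups overlapped by this 1 pair. The means were 11.55 ± 0.19 in knockout and 11.11 ± 0.28 in control (SD, n = 3 each), and the difference of 0.44 (SE 0.19, 95% confidence interval -0.06 to 0.95) missed the criterion (exact permutation p = 0.2, adjusted p = 1 from limma). A pair of further probe sets for Acta2 stayed at the floor of the array on all 6 arrays and carries no level.

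Myh11, on chr16:14194527-14292188, encodes the myosin heavy chain of smooth muscle, the motor of the thick filament and its most restricted marker. It read 7.76, 7.74 and 8.04 on the knockout arrays and 7.28, 8.19 and 6.85 on the control arrays. The highest and the lowest of the 6 values both belonged to control mice, the highest to control 2. With 7.85 ± 0.17 in knockout and 7.44 ± 0.68 in control (SD, n = 3 each), the difference of 0.41 (SE 0.39, 95% confidence interval -0.65 to 1.46) was smaller than the spread among the controls (exact permutation p = 0.4). The other probe set of Myh11 was constant at the floor.

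Tagln, Acta2 and Myh11 had in common that control 2 was the highest control array, by 0.64, 0.43 and 1.12 over the mean of the other 2 controls. On this same array the tubule markers were high and the leukocyte markers low, and their part in these values was not tested. Without control 2 the criterion was met by all 3 genes, with differences of 0.59 for Acta2 and 0.78 for Myh11 (adjusted p = 0.767 and adjusted p = 0.725 from limma). Removing the highest control array raises a difference by construction, so the larger differences are no result about these genes. Over all alternatives the adjusted p ran from 0.104 to 1 for Acta2 and from 0.445 to 1 for Myh11. Both lowest values came from median centring of the arrays, which shifts the probe sets at the floor apart and so alters every adjusted p. The next lowest from limma were 0.614 for Acta2 with dim probe sets excluded and 0.725 for Myh11 without control 2. Without control 2, 0.31% of all probe sets met the criterion, and 0.382% of those not dim met it with knockout higher. The mean of the knockout arrays was above control 2 by 0.25 for Tagln and 0.16 for Acta2, and differed from it by -0.34 for Myh11. For Smtn control 2 was also the highest control, by only 0.06 over the mean of the others. For Cald1, Tpm2, Des and Myl9 it was the lowest, differing from that mean by -0.10, -0.11, -0.27 and -0.32.

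**Figure D2:**
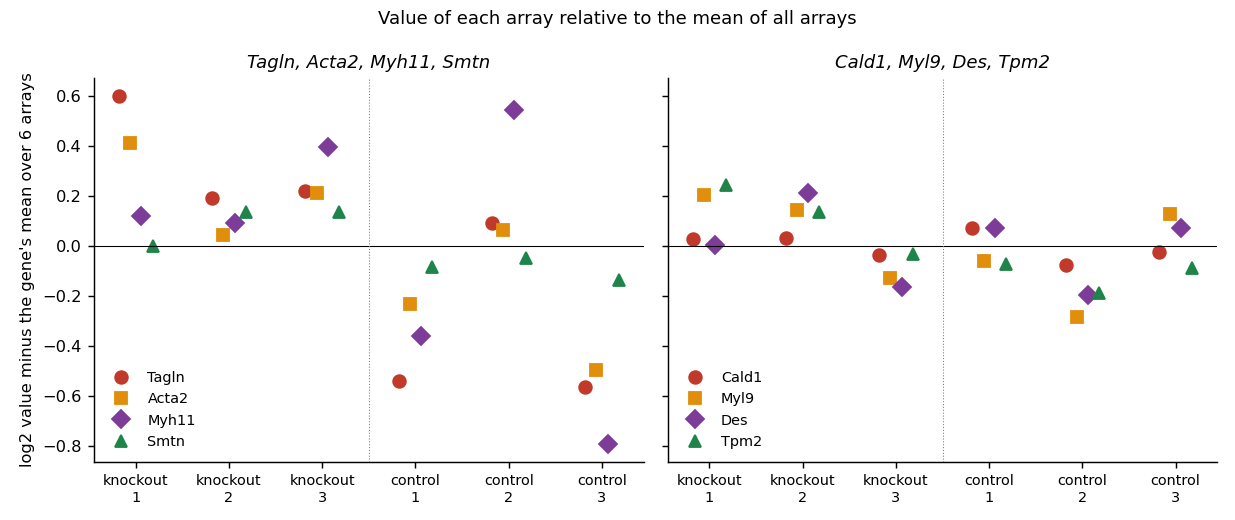
Value of each array relative to the mean of the gene over the 6 arrays (log2), 1 symbol per gene, with the knockout arrays on the left of each panel and the control arrays on the right. The genes were divided between the panels after their values were seen. In the left panel Tagln, Acta2 and Myh11 have their highest control value on control 2, where Myh11 stands 0.55 above its mean, and in the right panel Cald1, Myl9, Des and Tpm2 have their lowest control value there.

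Smtn encodes smoothelin, a structural protein tied to the actin filaments of contractile smooth muscle, and lies on chr11:3517522-3539292. Its values spanned a narrow range, with 9.35, 9.49 and 9.49 in knockout and 9.27, 9.31 and 9.22 in control glomeruli. All knockout values were above all control values, with knockout 1 close to control 2. The means were 9.44 ± 0.08 in knockout and 9.27 ± 0.04 in control (SD, n = 3 each), and the difference of 0.18 (SE 0.05, 95% confidence interval 0.04 to 0.31, adjusted p = 1 from limma) stayed below the fold of the criterion.

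Tpm2, on chr4:43513726-43523583, encodes beta-tropomyosin, which lies in the groove of the actin filament. Its brightest probe set read 10.71, 10.60 and 10.43 in knockout and 10.39, 10.28 and 10.38 in control glomeruli. These groups did not overlap either, although knockout 3 was only slightly above control 1. The difference was 0.23 (SE 0.08, 95% confidence interval 0.0035 to 0.46, adjusted p = 1 from limma), from means of 10.58 ± 0.14 in knockout and 10.35 ± 0.06 in control (SD, n = 3 each). A further probe set of the same gene, with 10.52, 10.32 and 10.30 in knockout and 10.34, 10.12 and 10.26 in control, did not separate the groups (0.14, SE 0.09, exact permutation p = 0.3). The remaining 2 of Tpm2 were dim.

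Non-overlap was thus seen for 3 of the 12 member probe sets that were not dim, those of Tagln, Tpm2 and Smtn, each higher in knockout. Among all 19619 probe sets not dim, 8.03% were apart with knockout higher and 5.65% with knockout lower. Each of the 3 had the smallest exact permutation p the design allows (0.1), which follows from the lack of overlap and is no further result.

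**Figure D3:**
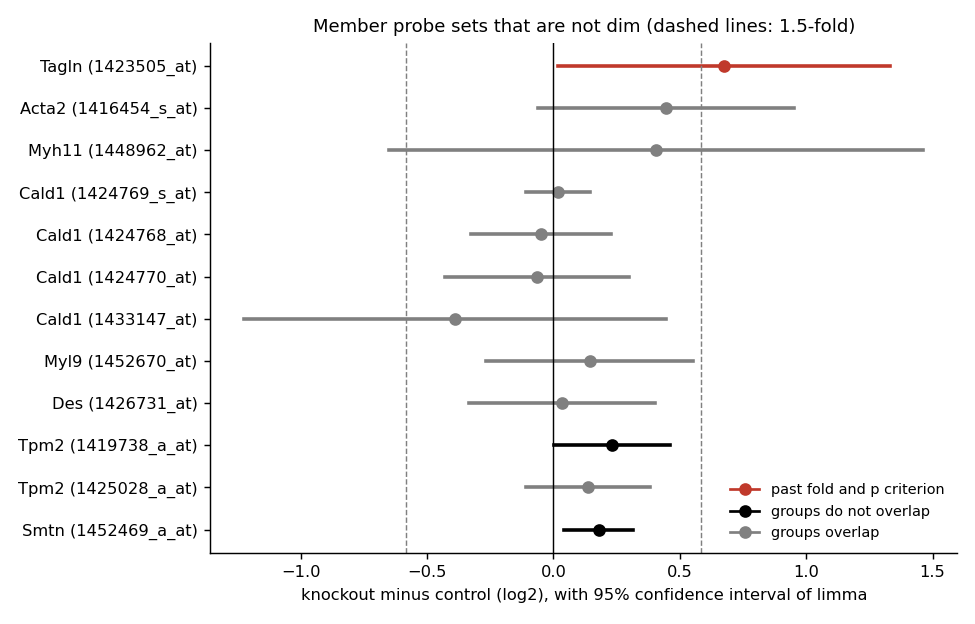
Difference between knockout and control (log2) with its 95% confidence interval from limma, for the 12 member probe sets that are not dim, with the 1.5-fold limits as dashed lines. The interval of Tagln is above 0 and passes 1.5-fold, those of Acta2 and Myh11 include 0, and those of Smtn, Tpm2, Myl9, Des and the 3 bright probe sets of Cald1 lie within the dashed lines.

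Cald1 encodes caldesmon, which binds actin and myosin and restrains their interaction. A long form is typical of smooth muscle and a short form of other cells, and the gene on chr6:34598495-34775469 had the most probe sets of all members, 5. The brightest read 14.11, 14.11 and 14.04 in knockout and 14.15, 14.00 and 14.05 in control. The groups were interleaved, and the means of 14.09 ± 0.04 in knockout and 14.07 ± 0.07 in control (SD, n = 3 each) differed by 0.02 (SE 0.05, 95% confidence interval -0.11 to 0.14). A pair of other bright probe sets gave -0.05 (SE 0.10) and -0.06 (SE 0.13). The interval of each of these 3 left out a 1.5-fold difference in either direction. The weakest probe set with signal gave -0.39 (SE 0.31, 95% confidence interval -1.22 to 0.44), so that little can be said from it, and the fifth was dim. The place of these 2 relative to the transcripts of Cald1 was not checked here, so they may not report its mRNA.

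Myl9 encodes the regulatory light chain of smooth muscle myosin, whose phosphorylation starts contraction, and lies on chr2:156775408-156781657. It read 13.03, 12.97 and 12.70 in knockout and 12.77, 12.54 and 12.96 in control. The groups overlapped, with control 3 next to knockout 2 and knockout 3 below controls 1 and 3. The difference was 0.14 (SE 0.15, 95% confidence interval -0.27 to 0.55, exact permutation p = 0.4), an interval within 1.5-fold.

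Des, on chr1:75360292-75368579, encodes desmin, the intermediate filament of muscle cells, present in mesangial cells and, after injury, in podocytes of the rat. Its values were 10.17, 10.38 and 10.01 in knockout and 10.24, 9.97 and 10.24 in control. They were fully mixed, and the means of 10.19 ± 0.19 in knockout and 10.15 ± 0.16 in control (SD, n = 3 each) differed by 0.04 (SE 0.14, 95% confidence interval -0.33 to 0.40, exact permutation p = 0.9). The sign of the Des difference turned without knockout 2 or control 2.

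Cnn1 encodes calponin, an actin-binding inhibitor of the myosin ATPase, and Lmod1 encodes leiomodin, which nucleates actin filaments. Both are markers of differentiated smooth muscle. The probe set of Cnn1 (chr9:22099221-22109221) read 2.20 and that of Lmod1 (chr1:135324813-135368065) read 2.27 on each of the 6 arrays, and no fold is given for either. The smooth muscle gamma-actin gene Actg2, of the list of actin genes, was also at 2.20 on all arrays. With 1 probe set per gene, a transcript at a low level and a probe set that does not respond cannot be told apart. Of 12 measured markers of mesangium and pericytes 9 were not dim: the PDGF receptor gene Pdgfrb averaged 13.19 ± 0.03 in knockout and 13.24 ± 0.17 in control, and the integrin gene Itga8 13.93 ± 0.06 in knockout and 13.93 ± 0.09 in control (SD, n = 3 each). The other 3 were dim, with Thy1 and Tbx18 at 2.20 on all arrays and Heyl with a mean of 3.66 over the knockout arrays and 3.16 over the control arrays. Of 13 markers of striated muscle, 12 were dim, and the other, Mylpf, differed by 0.03 (SE 0.17).

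Over the 8 genes with signal, all differences were positive, from 0.02 for Cald1 to 0.68 for Tagln, with a median of 0.21, whereas the median of all probe sets not dim was 0.02 and 54.9% of them were positive. Over all 10 genes the median was 0.16. The members were chosen with earlier results of these data known, so these counts and medians only describe the list. The differences of Cald1 and Des changed sign in some alternatives. By probe set, 9 of the 12 that were not dim were higher and 3 lower, all 3 of Cald1 and 1 of them the weak probe set of unchecked place. The summed unlogged signal of the 10 genes was 34598, 33298 and 30996 on the knockout arrays and 31325, 29268 and 30685 on the control arrays. Knockout 3 stood below control 1, so that the totals overlapped. An unlogged sum is weighted towards the brightest members, here Cald1 and Myl9, whose differences were 0.02 and 0.14.

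**Figure D4:**
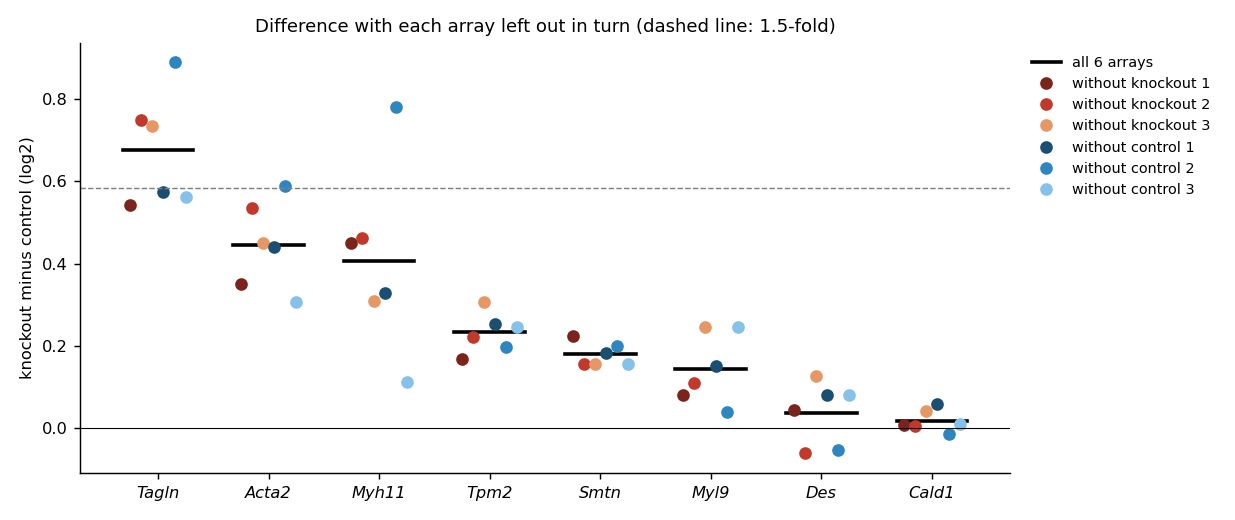
Difference between knockout and control (log2) for the 8 genes with signal, with all 6 arrays (bar) and with each array left out in turn (points), and the 1.5-fold limit as a dashed line. Tagln ranged from 0.54 to 0.89 and Myh11 from 0.11 to 0.78, and the highest value of Tagln, Acta2 and Myh11 was that without control 2.

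The members did not share a single pattern over the 6 arrays. As a description, the root mean square distance between the centred profile of Tagln and that of each other gene was 0.16 for Acta2, 0.31 for Myh11, 0.35 for Tpm2, 0.36 for Smtn, 0.43 for Cald1, 0.44 for Myl9 and 0.48 for Des. Acta2 was thus the member most like Tagln, and Des the least. Of 2038 other genes with a comparable range, the nearest to Tagln were Klf15 (0.09), Ngb (0.10), Gadd45a (0.10), Spidr (0.17) and Npl (0.19). Gadd45a, a stress-inducible gene of the DNA damage response, read 11.31, 10.97 and 10.87 in knockout and 10.25, 10.66 and 10.33 in control. As in Tagln, control 2 was its highest control array. Gadd45a was picked for its nearness to the Tagln profile, so this likeness is no further result. Nearest to the mean profile of the 8 genes, out of 7794, were Poldip3 (0.02), Tsr3 (0.03), Dimt1 (0.03), Carnmt1 (0.04) and Yif1a (0.04).

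The regulators and partners of smooth muscle contraction gave no member past the criterion. Of 20 listed genes 18 were measured and 14 were not dim, and of the 18, 13 were higher and 4 lower, with a median of 0.08. Groups were apart for 4 of the 18, all higher and some of them dim. Of all probe sets not dim, 8.03% were apart with knockout higher. Srf, the serum response factor, read 9.23, 9.18 and 9.17 in knockout and 8.91, 8.85 and 9.05 in control. The groups were apart, with a difference of 0.25 (SE 0.06, unadjusted p = 0.0118 and adjusted p = 1 from limma). Its coactivator genes Mrtfa and Mrtfb differed by -0.08 (SE 0.14) and 0.00 (SE 0.07), with overlapping groups. The myocardin gene Myocd was dim, with 3.31, 3.95 and 3.15 in knockout and 3.06, 3.04 and 3.10 in control. Its groups did not overlap, and the difference of 0.40 (SE 0.24) had an adjusted p of 1 from limma. Ppp1r14a, which encodes an inhibitor of myosin phosphatase, had a difference of 0.42 (SE 0.34). Prkg1, the cGMP-dependent kinase that relaxes smooth muscle, had one of 0.29 (SE 0.12), and neither had an unadjusted limma p under 0.05. Besides Srf, Mylk (0.10, SE 0.03) and Ppp1r12b (0.19, SE 0.07) did, with an unadjusted limma p of 0.0137 and 0.0425. Of all probe sets not dim, 8.12% had one under 0.05. Control 2 was the lowest array for Ppp1r14a, and without it the difference was 0.11.

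Of the 20 listed genes of the general actin and actomyosin cytoskeleton, 14 were higher and 5 lower in knockout, with a median of 0.08 (0.02 without control 2) and none past the criterion. Groups were apart for 2 of the 20, both higher, where 8.03% of all probe sets not dim were apart in that direction. The 3 not dim with the largest differences were the light chain gene Myl6 (-0.26, SE 0.19), the calponin gene Cnn2 (0.25, SE 0.14) and the alpha-actinin gene Actn1 (0.20, SE 0.09). None of these had an unadjusted limma p under 0.05, which 8.12% of all probe sets not dim had. The 2 genes with groups apart, Tpm1 (0.19, SE 0.06) and Myl12a (0.07, SE 0.01), had an unadjusted limma p of 0.0283 and 0.00615. Of the 15 listed mesangial and pericyte markers, 12 were measured, 8 were higher and 3 lower, with a median of 0.01 (5.8e-05 without control 2), none apart and none past the criterion. Among the 9 not dim the largest differences were those of Notch3 (-0.13), Itga1 (0.12) and Mcam (0.12), and the dim Heyl had 0.50 (SE 0.28). The summed signal of these markers was 48610, 49430 and 46997 on the knockout arrays and 51353, 47554 and 46770 on the control arrays, which overlapped.

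Among markers of the other cells of the preparation, all 7 measured podocyte genes were higher, none past the criterion and none with groups apart. Their median was 0.14 (0.24 without control 2). Of 10 endothelial genes 8 were lower, with a median of -0.13 and 1 past the criterion, the higher Sost. Groups were apart for 5 of these 10, with Sost higher and the others lower. Of all probe sets not dim, 13.7% were apart in either direction and 5.65% with knockout lower. The median was 0.66 for the leukocyte list and -0.29 for the tubule list, and without control 2 it was -0.19 and 0.24, so that both turned with this array. Of 9 fibroblast markers 6 were dim, and the other 3 did not share a direction. Dcn averaged 4.81 ± 0.33 in knockout and 3.75 ± 0.73 in control (SD, n = 3 each), groups apart with knockout higher by 1.06 (SE 0.44), short of the criterion, and by 0.65 without control 2. Col1a2 differed by -0.08 (SE 0.08). Pdgfra passed the criterion, with a difference of -0.59 (SE 0.17), which without control 2 was -0.54 and missed it. The part of these lists in the values of the contractile genes was not tested.

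**Figure D5:**
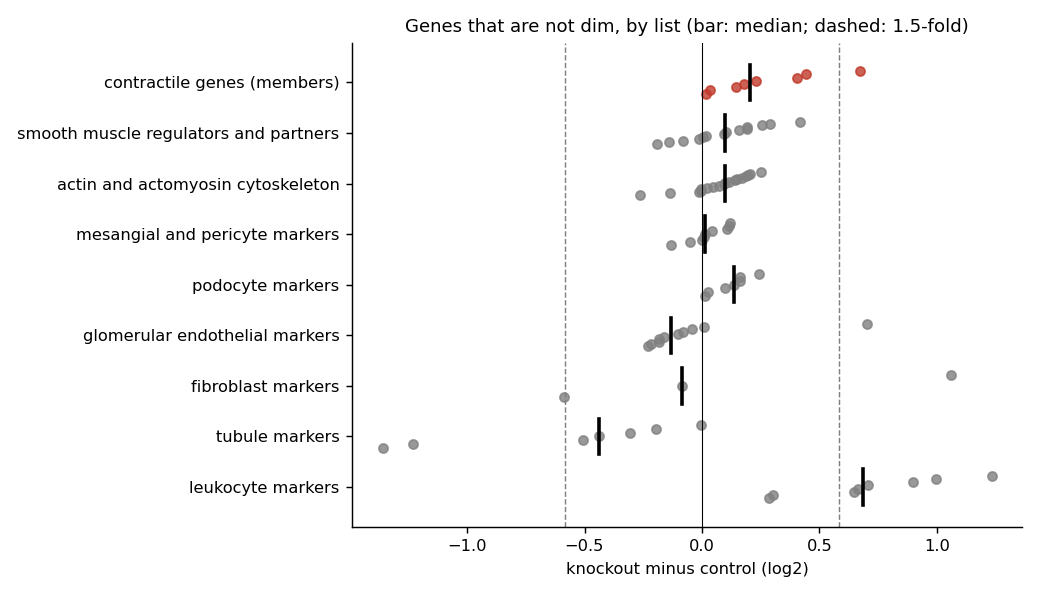
Difference between knockout and control (log2) of each gene that is not dim, by list, with the brightest probe set of a gene as a point, the list median as a bar and the 1.5-fold limits as dashed lines. The contractile genes lie between 0.02 and 0.68, the mesangial and pericyte markers from -0.13 to 0.12, the tubule markers below 0 and the leukocyte markers above 0.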

How the data were processed

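Glomeruli of 3 dendrin knockout and 3 littermate control mice were profiled with 1 array per mouse. The authors normalized the raw array data with GCRMA (version 2.30.0 in the submitters' processing notes), so that the deposited values are log2 signals per probe set, already corrected for background and quantile normalized. GCRMA pulls weak probe sets to a common floor, which hides differences there. Raw intensities were not used here. Probe sets were named from the platform annotation, and 34958 had 1 gene, 932 several and 9211 none. Only those with 1 gene were used for a gene, and the brightest stood for it in lists.

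Groups follow the genotype label. limma (version 3.58.1 in R 4.3.3) was fitted to all 45101 probe sets with lmFit and eBayes, two-sided, without filter or covariate (4 residual and 0.312 prior degrees of freedom), and p values were adjusted by Benjamini-Hochberg over all probe sets. The 95% intervals are those of limma. SAM, which the methods of the study name, was written out in R, its p values drawn from all 20 arrangements of the arrays. The code was tested on simulated data. Precision is limited by the number of arrays, since no counts lie behind array values.

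The members and lists were chosen with earlier results of these data known. All members were named, and of each context list up to 3 genes not dim with the largest difference, any past the criterion, and Ddn. Actg2, Pdgfrb, Itga8, Thy1, Tbx18, Heyl, Myocd, Mrtfa, Mrtfb, Mylk, Ppp1r12b, Tpm1 and Myl12a were named besides, after their values were seen. Likeness was the root mean square distance between log2 profiles centred per gene, over genes whose range was at least 0.5 times that of the target. The endothelial, podocyte, tubule and leukocyte lists are given by counts. Mkl1 and Mkl2 were matched by synonym to Mrtfa and Mrtfb. Promoters are from RefSeq. Alternatives were SAM, a trended and robust prior in limma, exclusion of dim probe sets or of those with a range up to 0.1, median centring, renewed quantile normalization, an offset of 16, a block for the replicate number, weights per array, a fold over 2, all probe sets of a gene, and the omission of each array. The omission of control 2 in the context lists was added after the data were seen.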

Additional observations from a re-analysis of the deposited data

How the results depend on the processing

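The difference of Tagln kept its direction in all 15 alternatives, from 0.54 to 0.89, and met the criterion in 9. Its adjusted p from limma or SAM ranged from 0.0958 to 1. The lowest was that of limma under median centring, and the next lowest was 0.573 from SAM. Array medians were 2.66 in knockout and 2.68 to 2.69 in control, so centring shifts the probe sets at the floor apart by group. The adjustment runs over all probe sets, so 0.0958 is not to be read as stronger evidence for Tagln. The count of member probe sets past the criterion, 1 with all arrays, was 0 with the replicate block, 0 with a fold over 2, and 0 to 3 with 1 array left out, being 3 without control 2 and 0 without any other. The count of probe sets with no overlap, 3 with all arrays, was 11 under median centring, which by construction shifts the probe sets at the floor apart, and 3 to 7 with 1 array left out. Leaving out an array can only keep or raise this count. The share over all probe sets was not computed for these omissions, so the rise is no result about the members. The median of the member genes, 0.16, was 0.21 with the filter on the mean, with the filter on the range and with dim genes left out, since Cnn1 and Lmod1 then drop out, and 0.12 to 0.20 with 1 array left out.

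Differences near 0 changed sign, and with 1 array left out ranged from -0.016 to 0.058 and -0.14 to 0.0087 and -0.14 to 0.053 for the 3 bright Cald1 probe sets and from -0.062 to 0.13 for Des. That of the brightest Cald1 probe set was -0.0086 with array weights and -0.016 without control 2, that of Des -0.0010 with array weights, -0.062 without knockout 2 and -0.054 without control 2, and those of the other Cald1 probe sets 0.0087 without knockout 3 and 0.0037 without control 1 for 1 of them, and 0.053 without knockout 3 for the other. The cause was not tested.

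Replicate numbers were shared by the groups, but deviations of same-numbered arrays correlated at 0.0949, 0.352 and 0.248, not all over 0.1, so the numbers were not taken as pairs, although each array correlated best with its own number. Signals at the floor limit what can be said of Cnn1 and Lmod1, and 3 mice against 3 that of all other genes.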
